A study of Homo sapiens with 8 samples.

Results

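APCDD1 and LBH were taken here with 7 further genes of Wnt signalling: the secreted inhibitors DKK1 and DKK3, the feedback gene AXIN2, the ligands WNT5A, WNT7A and WNT7B, and the co-receptor LRP6. These are 9 of the 26485 genes in the tables, matched by gene symbol, and all 9 symbols were found. The cells were BEAS-2B, a virus-immortalised human bronchial epithelial line, and the question was how they respond to house dust mite (HDM) extract when LY96 is targeted by siRNA. LY96 encodes MD-2, which binds lipopolysaccharide together with the receptor TLR4. It was listed at 0 FPKM in all 8 libraries, control siRNA included, so the knockdown cannot be checked here. The 4 groups were control siRNA with PBS (1 library), control siRNA with HDM (3 libraries), LY96 siRNA with PBS (1 library) and LY96 siRNA with HDM (3 libraries). In all groups the BEGM growth medium was replaced by BEBM 24 h before PBS or HDM was given, and RNA was taken 24 h after that. All libraries come from a single cell line, and nothing in the labels tells separate cultures from repeat libraries of a culture. The p-values therefore measure the spread between libraries, which may be technical.

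Wnt ligands bind a Frizzled receptor together with LRP5 or LRP6. In the canonical branch this stops a complex of AXIN, APC, GSK3 and casein kinase 1 from marking beta-catenin for destruction, and beta-catenin then acts with TCF/LEF factors on target genes. Several targets feed back on the pathway: AXIN2 rebuilds the destruction complex, DKK1 blocks LRP6, and APCDD1 is a membrane glycoprotein that binds Wnt ligands and their co-receptor and dampens signalling. In the airway, Wnt signalling is known for roles in lung development and in the repair of the epithelium.

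APCDD1 and LBH were chosen by their falls with HDM, so HDM differences of the 9 genes are given as a description, without a test. Averaged over both siRNAs, APCDD1 had the third and LBH the fifth largest HDM difference among the 1188 genes at an average of 5 FPKM or more that were below the matching PBS library in every HDM library. APCDD1 reached that average, at 5.06 FPKM, only through its PBS libraries. Its HDM means were 4.94 FPKM with control and 2.72 FPKM with LY96 siRNA, so its rank is a description too. FPKM counts fragments relative to transcript length and to the fragments sequenced. Differences on a log2 scale are between values of log2(FPKM + 1), which understates changes of low genes, and ratios are of mean FPKM. The siRNA comparison was made between the 3 LY96 and the 3 control libraries under HDM and does not use the PBS libraries. It was tested with limma across 12598 genes, with Benjamini-Hochberg adjusted p-values and a threshold of 0.05, and it called 15.6% of them, 6.68% higher and 8.92% lower with LY96 siRNA. Of these 1966 calls 42.8% were higher, against 54.2% of 1945 after median-ratio scaling. Without control HDM replicate 2 or 3 the calls numbered 1119 and 1243.

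LY96 siRNA lowered APCDD1 and raised DKK3 under HDM, and those were 2 of the 8 genes that could be tested. WNT5A was too low to judge. LBH, AXIN2 and WNT7B were lower in every LY96 HDM library than in every control HDM library, but their differences did not pass the threshold. How many of all genes separate in that way was not counted, so it is not read as a trait of these genes. DKK1, WNT7A and LRP6 overlapped between the siRNAs. Both calls held under 14 of 14 other settings.

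**Figure D1:**
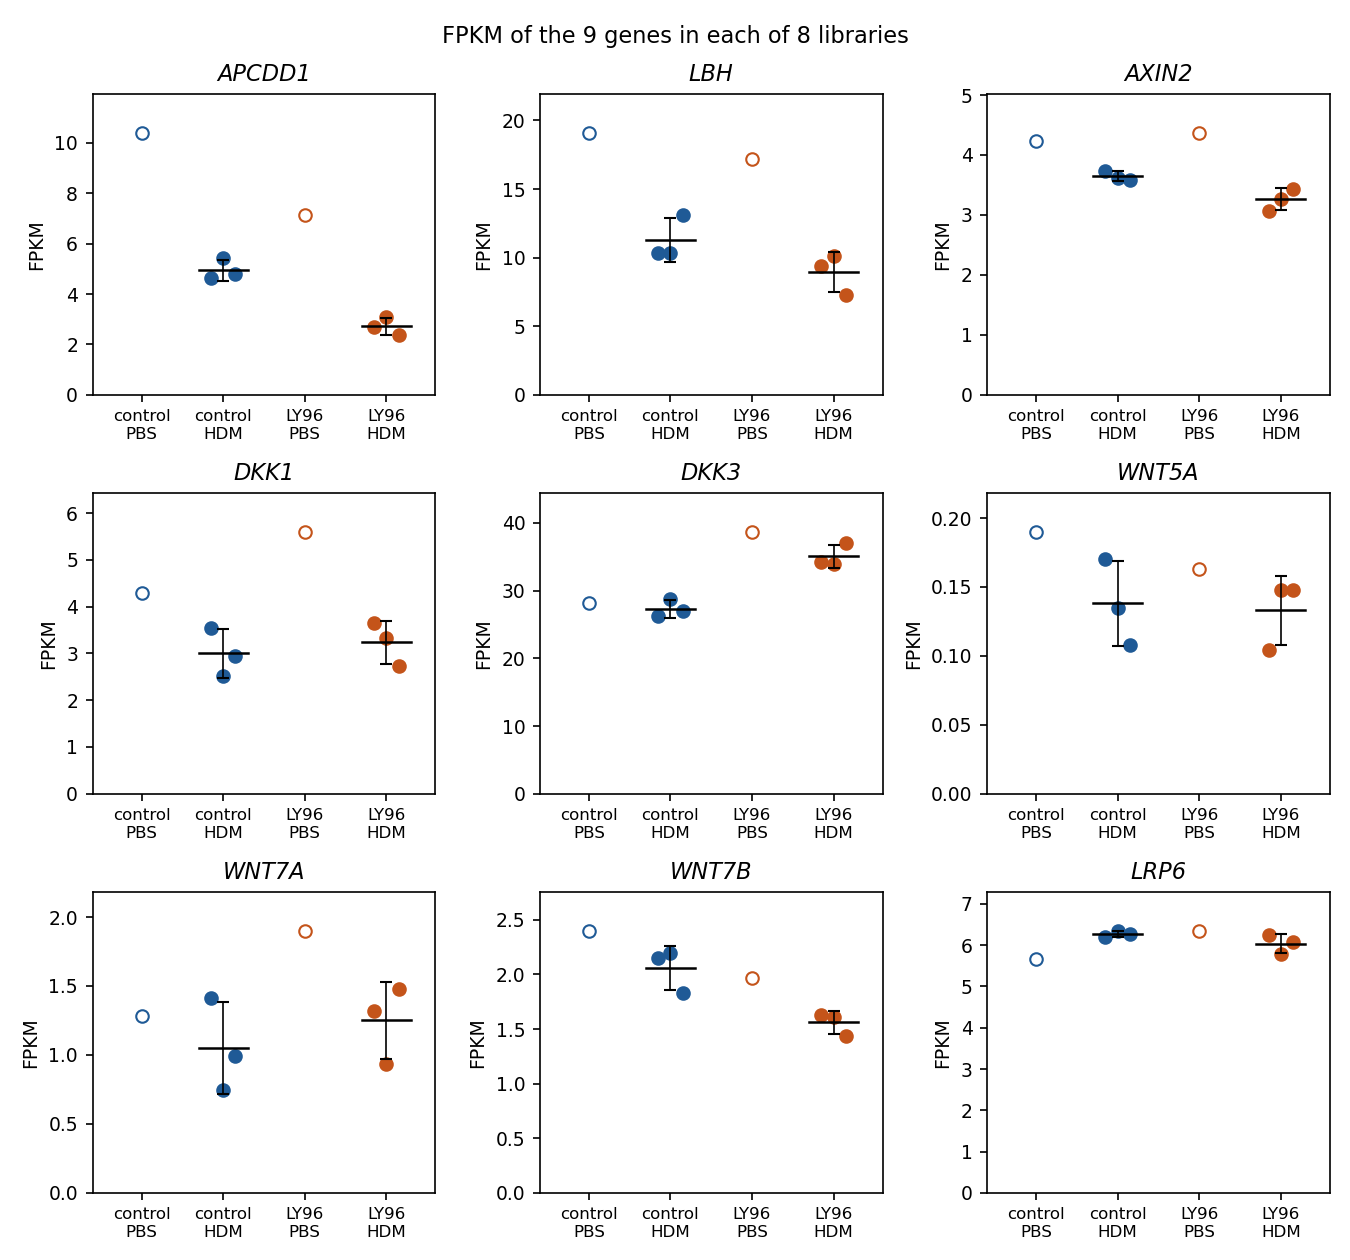
FPKM of the 9 genes in the 8 libraries, 1 panel per gene with its own axis starting at 0; points are libraries, and the bars beside the HDM points are means with SD of 3 libraries. APCDD1 steps down from 10.4 in the control PBS library to between 2.38 and 3.07 in the LY96 HDM libraries, and DKK3 lies higher with LY96 siRNA.

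Among the extracellular inhibitors, APCDD1 (chromosome 18, 10454628 to 10489948, plus strand, GRCh38) was measured at 10.4 FPKM in the control PBS library and at 4.63, 5.41 and 4.79 FPKM in the 3 control HDM libraries. With LY96 siRNA it was at 7.14 FPKM under PBS and at 2.70, 3.07 and 2.38 FPKM under HDM. The order of the groups was control PBS, LY96 PBS, control HDM, LY96 HDM, with no overlap between neighbours, although each PBS group is 1 library. The HDM libraries with control siRNA held 44.6% to 52.1% of their PBS value and those with LY96 siRNA 33.3% to 43.1%. The mean under HDM was 4.94 ± 0.411 FPKM with control siRNA and 2.72 ± 0.347 FPKM with LY96 siRNA (SD, n = 3 each), a ratio of 0.55. By limma the difference was -0.68 on the log2 scale (SE 0.084, 95% interval -0.87 to -0.49, adjusted p = 0.00147), lower in 3 of 3 LY96 libraries. Between the PBS libraries, 1 of each siRNA, the ratio was 0.687, which was not tested. In these bulk samples, fewer cells that express the gene and less RNA per cell cannot be told apart.

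DKK3, a divergent member of the Dickkopf family whose action on Wnt signalling is less settled than that of DKK1, was the most abundant of the 9 genes, with a mean of 31.7 FPKM over the 8 libraries. It lies on chromosome 11, 11963106 to 12009769, minus strand (GRCh38). Its level was 28.2 FPKM in the control PBS library and 26.2, 28.7 and 27.0 FPKM in the control HDM libraries. With LY96 siRNA the PBS library was at 38.7 FPKM and the HDM libraries at 34.2, 33.9 and 37.0 FPKM. Every LY96 library was above every control library, under PBS as well as HDM. The HDM means were 27.3 ± 1.27 and 35.1 ± 1.71 FPKM (SD, n = 3 each), a rise of 0.35 on the log2 scale with LY96 siRNA (SE 0.047, 95% interval 0.245 to 0.459, limma adjusted p = 0.00231), higher in 3 of 3 libraries. HDM values stayed near PBS, at 92.9% to 102% of it with control and 87.7% to 95.7% with LY96 siRNA. DKK3 and APCDD1 thus changed in opposite directions with the siRNA.

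DKK1, the classical secreted antagonist of LRP6 (chromosome 10, 52314296 to 52318042, plus strand, GRCh38), was at 4.29 FPKM in the control PBS library and at 3.55, 2.52 and 2.94 FPKM with HDM. With LY96 siRNA it was at 5.6 FPKM under PBS and at 3.66, 3.33 and 2.74 FPKM under HDM. All 6 HDM libraries were below the PBS library of the same siRNA, at 58.7% to 82.8% of it with control and 49.0% to 65.3% with LY96 siRNA. The siRNA groups overlapped under HDM, at 3.00 ± 0.521 and 3.24 ± 0.463 FPKM (SD, n = 3 each). The siRNA difference was 0.086 on the log2 scale (95% interval -0.17 to 0.34, limma adjusted p = 0.645), and the interval holds changes in either direction. The gene overlaps the antisense gene PRKG1-AS1, whose mean was 0.00127 FPKM.

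The start regions of APCDD1, LBH and DKK1 are shown because these 3 genes had the largest HDM differences of the 8 with a mean of 1 FPKM or more. RefSeq promoters on GRCh38.p14 were matched for 5 of the 9 symbols (APCDD1, LBH, DKK1, WNT5A and WNT7A). The 250 bases before the RefSeq start site are printed 5′ to 3′ on the strand of the gene, from chr18:10454385-10454634 (plus) for APCDD1, chr2:30231284-30231533 (plus) for LBH and chr10:52314031-52314280 (plus) for DKK1. RefSeq and GENCODE starts differ. The GENCODE gene starts at 30231369 for LBH and at 10454628 for APCDD1, inside these windows. The end of either window, and for LBH the larger part of it, thus lies within the GENCODE gene. Capitals mark matches to the core of the TCF/LEF motif, searched on both strands as CTTTGNN, where each N was allowed to be adenine or thymine.
APCDD1: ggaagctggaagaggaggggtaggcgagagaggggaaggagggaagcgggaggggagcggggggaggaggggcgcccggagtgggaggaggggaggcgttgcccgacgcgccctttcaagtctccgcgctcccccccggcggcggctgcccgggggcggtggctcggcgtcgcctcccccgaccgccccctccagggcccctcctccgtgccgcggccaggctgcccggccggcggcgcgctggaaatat
LBH: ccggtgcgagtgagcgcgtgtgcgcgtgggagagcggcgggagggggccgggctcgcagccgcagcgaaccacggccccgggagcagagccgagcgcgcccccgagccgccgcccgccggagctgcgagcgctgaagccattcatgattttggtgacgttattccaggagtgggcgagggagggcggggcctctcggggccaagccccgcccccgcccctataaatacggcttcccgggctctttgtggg
DKK1: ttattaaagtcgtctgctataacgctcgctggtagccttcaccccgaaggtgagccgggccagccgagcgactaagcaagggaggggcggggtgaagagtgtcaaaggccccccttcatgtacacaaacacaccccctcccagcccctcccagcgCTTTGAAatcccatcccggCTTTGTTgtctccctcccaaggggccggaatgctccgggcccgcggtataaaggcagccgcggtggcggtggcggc
In DKK1 there were 2 matches on the strand of the gene, CTTTGAA at 95 to 89 and CTTTGTT at 76 to 70 bases before the start. APCDD1 and LBH had 0 matches in this window, which says nothing of sites elsewhere or of binding. Of 35116 promoters of this length, 12.0% held at least 1 match and 1.21% held 2 or more. Among the 13602 promoters of genes averaging 1 FPKM or more, 8.09% held at least 1 and 0.544% held 2 or more. The share of G and C was 77.2% for APCDD1, 72.8% for LBH and 62.8% for DKK1, against a median of 58.0% over all promoters and 64.8% over those of genes averaging 1 FPKM or more. They held 29, 32 and 18 CpG dinucleotides, against medians of 11 and 20. APCDD1 and LBH were above both medians, and DKK1 was above that of all promoters and below that of the expressed genes.

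Among the targets, LBH, a transcription cofactor known as a Wnt target in mammary epithelium (chromosome 2, 30231369 to 30323730, plus strand, GRCh38), was at 19.1 FPKM in the control PBS library and at 10.3, 10.3 and 13.1 FPKM in the control HDM libraries. With LY96 siRNA it was at 17.2 FPKM under PBS and at 9.41, 10.1 and 7.29 FPKM under HDM. The PBS libraries were the 2 highest of the 8, and the HDM libraries held 54.0% to 68.7% of PBS with control and 42.3% to 58.8% with LY96 siRNA. The siRNA groups under HDM came close, the highest LY96 library at 10.1 and the lowest control library at 10.3 FPKM. Their means were 11.3 ± 1.62 and 8.94 ± 1.47 FPKM (SD, n = 3 each). The difference of -0.31 on the log2 scale (SE 0.13, 95% interval -0.63 to 0.016, limma adjusted p = 0.179) did not pass the threshold. The upper end of that interval is near 0 and the lower end is close to the difference seen for APCDD1.

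AXIN2 encodes the scaffold that rebuilds the destruction complex and is a widely used readout of canonical signalling (chromosome 17, 65528563 to 65561647, minus strand, GRCh38). It was at 4.23 FPKM in the control PBS library and at 3.74, 3.61 and 3.59 FPKM with HDM. With LY96 siRNA it was at 4.37 FPKM under PBS and at 3.07, 3.26 and 3.44 FPKM under HDM. The 6 HDM libraries were below both PBS libraries, and the 3 LY96 HDM libraries were the lowest. The ratio of HDM to PBS was 0.863 with control and 0.745 with LY96 siRNA. The siRNA difference under HDM was -0.13 on the log2 scale (95% interval -0.26 to 0.011, limma adjusted p = 0.191) and did not pass, with means of 3.65 ± 0.0787 and 3.26 ± 0.185 FPKM (SD, n = 3 each).

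**Figure D2:**
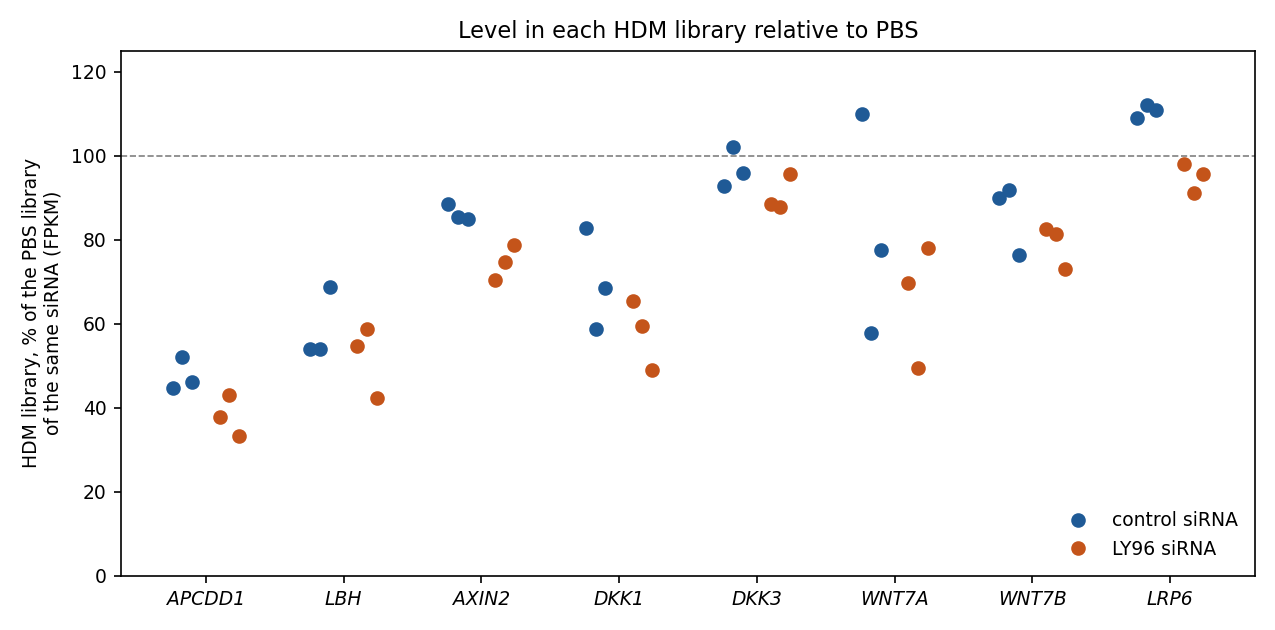
Each HDM library as a percentage of the PBS library of the same siRNA, for the 8 genes averaging 1 FPKM or more; points are single libraries, and the dashed line is the PBS level at 100%. APCDD1 lies between 33.3% and 52.1% and LBH between 42.3% and 68.7%, where some DKK1 and WNT7A libraries also lie, and LRP6 lies on either side of the line by siRNA.

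Of the 3 ligands among the members, WNT7B had the highest mean, 1.90 FPKM over the 8 libraries (chromosome 22, 45920362 to 45977129, minus strand, GRCh38). Its level was 2.40 FPKM in the control PBS library, 2.15, 2.2 and 1.83 FPKM in the control HDM libraries, 1.97 FPKM in the LY96 PBS library and 1.63, 1.61 and 1.44 FPKM in the LY96 HDM libraries. The LY96 libraries were below the control libraries of the same treatment. The siRNA difference under HDM was -0.26 on the log2 scale (SE 0.081, 95% interval -0.44 to -0.074), lower in 3 of 3 libraries. Its unadjusted p of 0.0114 became 0.0631 after adjustment by limma, and 0.0403 when limma was run without a mean-variance trend and robust moderation. WNT7B was the only member beside APCDD1 and DKK3 with an unadjusted p under 0.05. By limma that was 3 of the 8 tested members, or 37.5%, against 31.2% of all 12598 genes in the siRNA comparison.

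WNT7A, a ligand of the same subfamily (chromosome 3, 13816258 to 13880121, minus strand, GRCh38), was at 1.28 FPKM in the control PBS library and at 1.41, 0.743 and 0.994 FPKM with HDM. With LY96 siRNA it was at 1.90 FPKM under PBS and at 1.32, 0.937 and 1.48 FPKM under HDM. The spread within a group spanned most of the range over all groups, and the siRNA difference under HDM was 0.14 (log2, 95% interval -0.18 to 0.45, limma adjusted p = 0.541). WNT5A, best known for signalling without beta-catenin (chromosome 3, 55465715 to 55490539, minus strand, GRCh38), lay between 0.104 and 0.190 FPKM in the 8 libraries. It was the member under the minimum mean of 1 FPKM and no difference was judged.

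LRP6, the co-receptor that carries the canonical signal (chromosome 12, 12116025 to 12267012, minus strand, GRCh38), varied least of the 8 tested members. It was at 5.67 FPKM in the control PBS library and at 6.19, 6.34 and 6.28 FPKM with HDM, and at 6.35 FPKM in the LY96 PBS library and 6.24, 5.79 and 6.08 FPKM with HDM. With control siRNA every HDM library was above PBS, at 109% to 112% of it, and with LY96 siRNA every one was below, at 91.2% to 98.1%. The difference between those HDM responses was -0.19 on the log2 scale (95% interval -0.41 to 0.033) and did not pass limma's test (unadjusted p = 0.0861, adjusted p = 0.69). The siRNA groups overlapped under HDM, with a difference of -0.047 (log2, 95% interval -0.16 to 0.063, limma adjusted p = 0.552). The gene overlaps BCL2L14 on the opposite strand, which was listed at 0 FPKM.

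**Figure D3:**
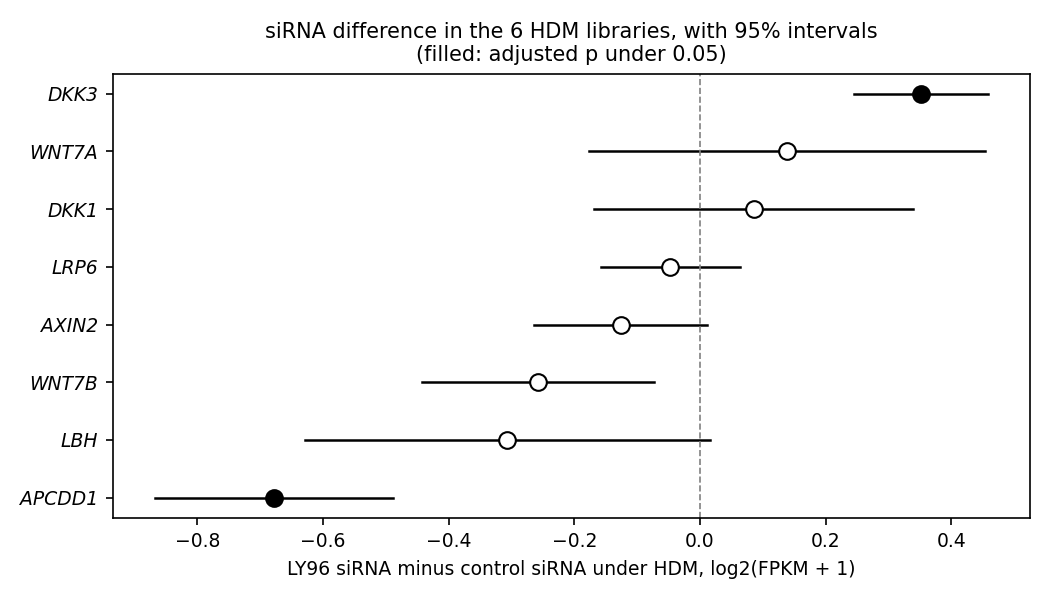
Difference between LY96 and control siRNA in the 6 HDM libraries, on the log2(FPKM + 1) scale, for the 8 tested genes with 95% intervals; filled points passed an adjusted p of 0.05. APCDD1 at -0.68 and DKK3 at 0.35 are the filled points, and the interval of WNT7B ends below 0 without passing after adjustment.

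Whether LY96 siRNA altered the HDM response was asked by the interaction, which subtracts the HDM response seen with control siRNA from the response seen with LY96 siRNA, in a model over all 8 libraries. For the 8 members the log2 HDM responses with control and LY96 siRNA were -0.94 and -1.13 for APCDD1, -0.72 and -0.89 for LBH, and -0.41 and -0.64 for DKK1. For AXIN2 they were -0.17 and -0.34, and for WNT7A -0.17 and -0.37. The responses were -0.15 and -0.22 for WNT7B, and -0.046 and -0.14 for DKK3. For LRP6 they differed in sign, at 0.12 with control and -0.064 with LY96 siRNA. All 8 interactions were below 0, from -0.23 for DKK1 to -0.065 for WNT7B, but the HDM arm of every member shares 1 PBS library per siRNA. The median interaction over all genes tested was 0.0022. How many of all genes lay below 0 was not counted, so the shared sign is not read as a trait of the members. Limma called 0 of the 8, with 0 at an unadjusted p under 0.05 and a smallest adjusted p of 0.69. Over all 12604 genes it called 7, or 0.0555%, with 956 at an unadjusted p under 0.05, or 7.58%. The interval for APCDD1 ran from -0.56 to 0.17 (log2, interaction -0.19), so a response stronger by as much as 0.56 or weaker by as much as 0.17 is inside it. The test takes each PBS group of 1 library to vary as the HDM libraries do.

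The wider pathway was read from lists of 111 other genes sorted by role. By limma 70 of them were tested in each comparison, while 41 had a mean under 1 FPKM, of which 10 were at 0 in all libraries. The ligand list had 4 of 16 genes at 1 FPKM or more, with WNT10A highest at a mean of 5.41 FPKM. The other secreted and membrane inhibitors had 4 of 14, led by TPBG at 13.0 FPKM. In contrast, 11 of 15 receptors and co-receptors, 15 of 19 cytoplasmic and 12 of 14 nuclear components were at that level, with PTK7, beta-catenin (CTNNB1) and CTBP1 highest at means of 40.8, 117 and 53.3 FPKM. Most of the listed receptors and intracellular components thus reached 1 FPKM, and most of the listed ligands did not. That is a matter of level, since 5 of the 16 ligands were at 0 in all libraries. The members WNT7A and WNT7B, outside this list, also reached 1 FPKM on average.

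Under HDM, LY96 siRNA raised 5 and lowered 5 of the 70 genes, or 14.3%, against 15.6% of all genes tested. Their median difference was -0.053 on the log2 scale, against -0.019 over all genes. The largest was in CCND1, the cyclin D1 gene that drives entry into S phase and a classical Wnt target. CCND1 was at 22.8 FPKM in the control PBS library, at 19.9, 19.8 and 19.6 with control siRNA and HDM, at 14.2 in the LY96 PBS library and at 9.85, 10.8 and 10.3 with LY96 siRNA and HDM. No LY96 library reached a control library, and the HDM difference was -0.88 on the log2 scale (SE 0.043, adjusted p = 2.04e-05). Among the other targets, VEGFA, an angiogenic growth factor, rose by 0.49 (SE 0.070, adjusted p = 0.0033), and CD44, a hyaluronan receptor, rose by 0.27 (adjusted p = 0.012). SOX9, a transcription factor, fell by 0.28 (adjusted p = 0.0278). MYC passed as well, at 0.23 (adjusted p = 0.0082), and stands outside the naming rule. The target list thus held both directions, 3 higher and 2 lower of 11 tested. PORCN, the acyltransferase that makes Wnt ligands fit for secretion, fell by 0.30 (SE 0.055, adjusted p = 0.00851), from 5.92 to 6.14 FPKM in the control HDM libraries to 4.41 to 4.96 FPKM. Smaller changes were those of GSK3A, a destruction complex kinase (-0.16, adjusted p = 0.0137), TLE4, a Groucho co-repressor (-0.22, adjusted p = 0.0466), CSNK1A1, casein kinase 1 alpha (0.13, adjusted p = 0.0369), and PTK7, a co-receptor (0.14, adjusted p = 0.0286). These 4 and SOX9 lost their call in at least 1 fit with a library left out. GSK3A did so without control HDM replicate 3 (adjusted p = 0.0501). PTK7 did so without control HDM replicate 2 or 3 or LY96 HDM replicate 2 or 3 (adjusted p from 0.0686 to 0.0949). SOX9 kept its call when LY96 HDM replicate 1 was left out and lost it without each of the other 5 HDM libraries (0.0616 to 0.0827). CSNK1A1 kept it without LY96 HDM replicate 3 and lost it without each of the other 5 (0.0754 to 0.105). TLE4 lost it without control HDM replicate 1 or 2 or LY96 HDM replicate 1 or 3 (0.0913 to 0.131). Without the filter on low values the adjusted p was 0.069 for CSNK1A1, 0.0505 for PTK7, 0.0506 for SOX9 and 0.105 for TLE4. Without trend and robust moderation it was 0.0943 for CSNK1A1, 0.066 for PTK7 and 0.0835 for TLE4, and with median-ratio scaling 0.0562 for TLE4.

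With HDM, averaged over both siRNAs, 4 of the 70 genes rose and 6 fell, again 14.3%, against 8.36% of all 12604 genes tested (4.86% higher and 3.5% lower). Their median was -0.026 on the log2 scale, against 0.011 over all genes. The 6 falls and the 14.3% count LGR6, whose call is set aside below, so that share is not read as an excess over all genes. LGR6 is a receptor for R-spondins, which strengthen Wnt signals. It was at 2.02 FPKM in the control PBS library and at 0.889, 0.636 and 0.908 with HDM, and at 2.36 FPKM in the LY96 PBS library and at 0.880, 0.671 and 0.552 with HDM. All 6 HDM libraries of LGR6 were below the minimum of 1 FPKM, which the gene reached on average (1.11 FPKM) only through its PBS libraries, so its difference of -0.86 is a description and its call is not read as a result. CCND1 fell by 0.31 (SE 0.042, adjusted p = 0.00209) and ID2, an inhibitor of helix-loop-helix factors, by 0.32 (adjusted p = 0.0221). VEGFA rose by 0.43 (SE 0.070, adjusted p = 0.006), FOSL1, a subunit of AP-1, by 0.34 (adjusted p = 0.0231), and CSNK1A1 by 0.16 (adjusted p = 0.0215). CD44 passed too, at 0.29 (adjusted p = 0.0117), and stands outside the naming rule. The other falls were in the ligand WNT9A (-0.38, adjusted p = 0.0496), the formin DAAM1 of the planar polarity branch (-0.28, adjusted p = 0.0296) and the co-repressor TLE2 (-0.25, adjusted p = 0.0334). These averages join unequal responses. With control and LY96 siRNA they were 0.15 and 0.72 for VEGFA, 0.20 and 0.49 for FOSL1, and -0.20 and -0.43 for CCND1. For TLE2 they were -0.41 and -0.093, for WNT9A -0.56 and -0.20, and for ID2 -0.38 and -0.25. Closer pairs were 0.15 and 0.16 for CSNK1A1, -0.24 and -0.32 for DAAM1, and 0.36 and 0.22 for CD44. Most of the HDM calls were lost when a PBS library was left out, which was tried after the data were seen, in a model without an interaction term. With a PBS library out, that model estimates the HDM response of the other siRNA alone. It thus does not test how far the average over both siRNAs rests on 1 library. Leaving out the LY96 PBS library gave 0 higher and 1 lower call among the Wnt genes, TLE2 (adjusted p = 0.042), and CCND1 was then at 0.148, VEGFA at 0.525 and FOSL1 at 0.401. Leaving out the control PBS library gave 2 higher and 2 lower, with CCND1 at 0.00412, VEGFA at 0.00404, FOSL1 at 0.0328 and TLE2 at 0.672. CSNK1A1 (0.101 and 0.161), DAAM1 (0.0917 and 0.244), ID2 (0.21 and 0.0869) and WNT9A (0.559 and 0.0881) lost their calls without the control and without the LY96 PBS library. With all 8 libraries in that model the adjusted p was 0.105 for VEGFA, 0.0819 for TLE2 and 0.0668 for WNT9A. Without the filter on low values it was 0.0523 for CSNK1A1, 0.0743 for DAAM1, 0.0759 for FOSL1, 0.0792 for ID2, 0.0876 for TLE2 and 0.0971 for WNT9A. Without trend and robust moderation it was 0.0775 for CSNK1A1, 0.0591 for ID2, 0.0651 for TLE2 and 0.0514 for WNT9A, and with pseudocounts of 0.1 and 0.25 it was 0.0612 and 0.0581 for WNT9A. Among fits without an HDM library, CSNK1A1 lost its call without control HDM replicate 2 (adjusted p = 0.0525), and TLE2 without LY96 HDM replicate 1 or 2 (0.0583 and 0.0511). DAAM1 lost it without control HDM replicate 2 or 3 or LY96 HDM replicate 2 or 3 (0.0517 to 0.0625), and WNT9A without control HDM replicate 2 or 3 or LY96 HDM replicate 1 or 3 (0.0762 to 0.0921). None of the 70 passed the interaction test by limma, with 8 at an unadjusted p under 0.05.

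**Figure D4:**
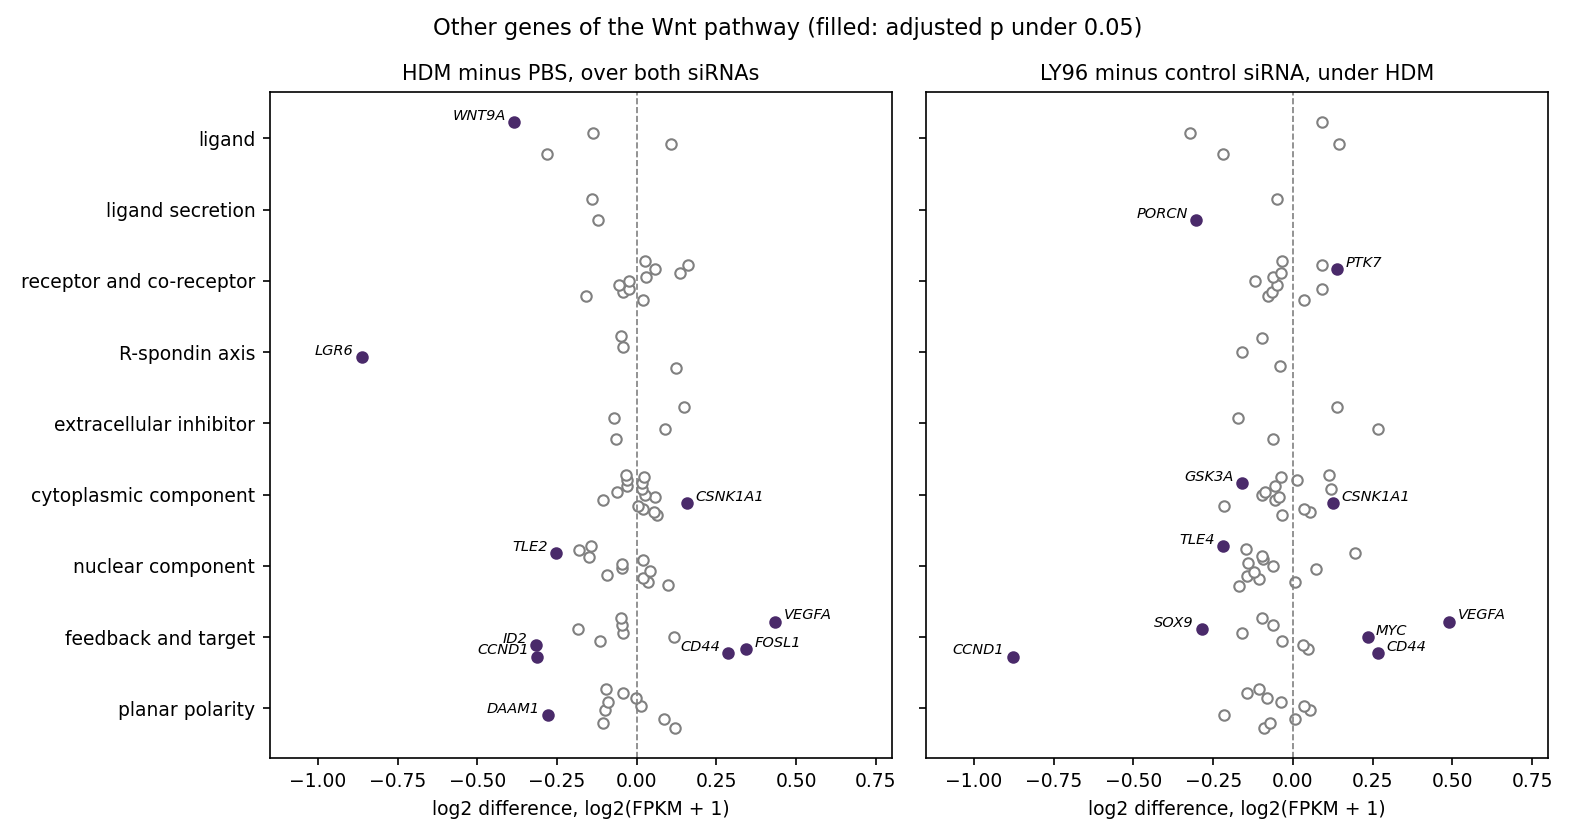
Differences on the log2(FPKM + 1) scale for the 70 genes of the Wnt lists tested in each comparison, by role. HDM against PBS is on the left, with LGR6 and without PYGO1. LY96 against control siRNA under HDM is on the right, with PYGO1 and without LGR6. Filled, named points passed an adjusted p of 0.05. CCND1 lies farthest from 0 on the right, at -0.88; LGR6, far to the left on the left, reached the minimum mean through its PBS libraries.

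The genes whose profile over the 8 libraries was most like that of a member were found among 8897 genes averaging 5 FPKM or more. Likeness was the root mean square difference between log2(FPKM + 1) profiles, each centred on its own mean, which reads the size of a change as well as its direction. APCDD1, LBH and DKK3 had a high enough mean and a range of at least 0.5 on the log2 scale. The mean of APCDD1, 5.06 FPKM, was high enough only through its PBS libraries. APCDD1 spanned 1.75, and its nearest genes were TAGLN, an actin-binding protein, at a difference of 0.148, S100P at 0.159, CYP4B1 and SLC2A3 at 0.162 each and ANKRD1 at 0.169. LBH ranked 12 by this measure, at 0.245. LBH spanned 1.28, and its nearest genes were TNNT2 at 0.092, ANKRD1 at 0.145, EMP1 at 0.147, ALDH3A1 at 0.160 and TINCR at 0.162, with APCDD1 at rank 44. ANKRD1 was in both lists of 5. DKK3 spanned 0.548 and was nearest to TMTC3 at 0.053, NEK7 at 0.056, PTK2 and CCPG1 at 0.062 each and NTN4 at 0.067. Since APCDD1 and LBH were chosen by their HDM falls, their likeness to each other is a description.

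**Figure D5:**
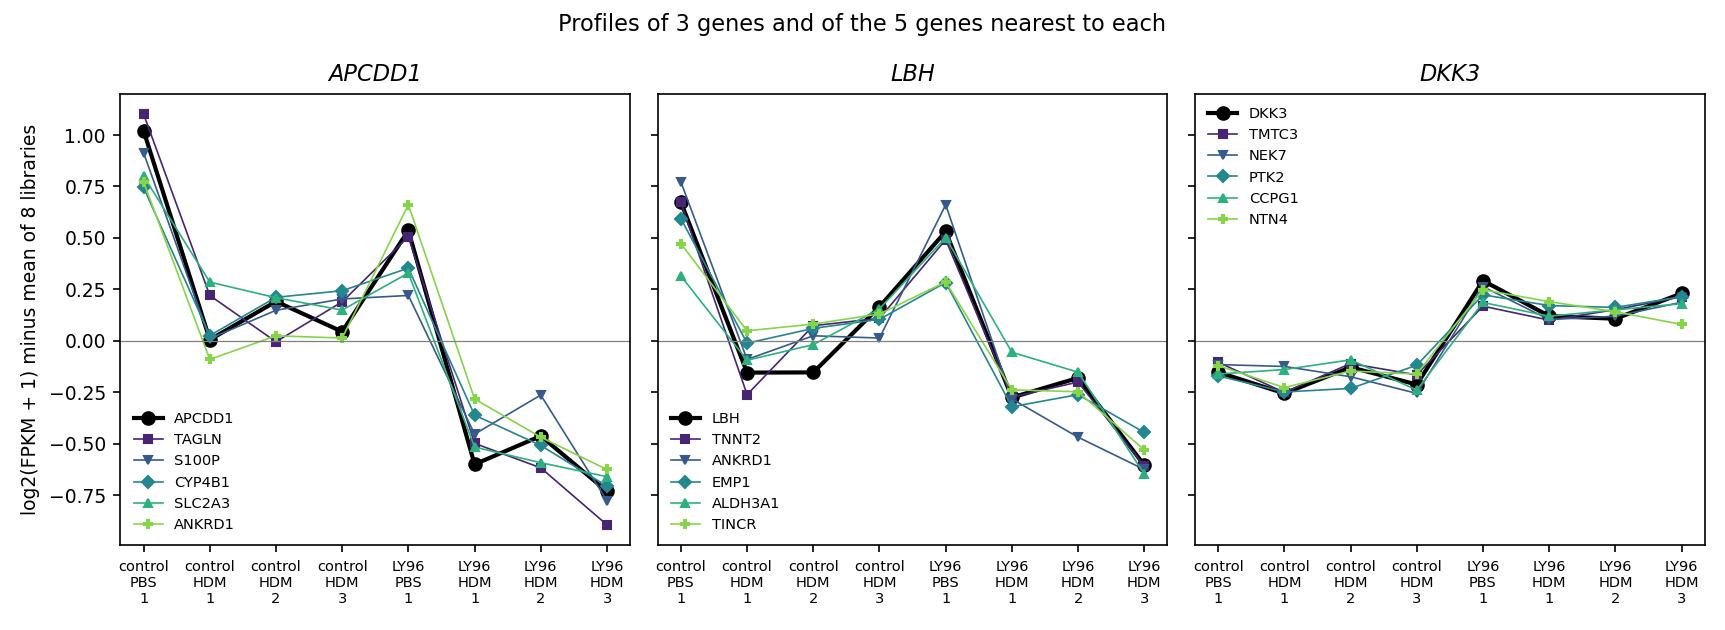
Profiles of APCDD1, LBH and DKK3 over the 8 libraries with those of their 5 nearest genes, as log2(FPKM + 1) minus the mean of each gene; bold lines are the members and thin lines their neighbours. The profiles of APCDD1 and LBH drop in the HDM libraries and that of DKK3 steps up in the LY96 libraries.

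FPKM totals ran from 329777 to 340328, with 17220 to 18143 genes above 0. The ribosomal RNA share was 0.475% to 0.824% in the control HDM libraries, 1.03% to 1.31% in the LY96 HDM libraries and 0.77% and 0.826% in the PBS libraries. All 8 airway epithelial markers were at 1 FPKM or more, and their sum was 1300 to 1340 FPKM with control siRNA and HDM, 1180 to 1240 with LY96 siRNA and HDM, and 1350 and 1360 under PBS. Of 8 mesenchymal markers 3 (VIM, PDGFRB and COL1A1) were at that level and DCN and LUM were at 0 in all libraries. Their sum was 329 to 339 FPKM with control siRNA and HDM, 350 to 361 with LY96 siRNA and HDM, and 379 and 376 under PBS. Of 5 leukocyte markers CD68 alone was at that level and PTPRC was at 0, with sums of 2.79 to 3.53 and 4.96 to 5.36 FPKM in the control and LY96 HDM libraries and 2.63 and 3.22 under PBS. Of 3 endothelial markers 0 reached 1 FPKM. The markers behind a sum did not move together. Under HDM the means of CDH1 (27.5 FPKM with control and 39.0 with LY96 siRNA) and KRT5 were higher with LY96 siRNA. Those of EPCAM, KRT7, KRT8, KRT18, KRT19 (150 and 94.8 FPKM) and TP63 were lower. VIM (317 and 338 FPKM), most of the mesenchymal sum, and COL1A1 were higher and PDGFRB lower. The sums, which differed between the siRNAs under HDM, are therefore not read as cell content. The part of the sums and of the ribosomal share, which differed too, in the differences of APCDD1, DKK3 and the other genes was not tested.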

How the data were processed

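RNA of 8 BEAS-2B libraries was deposited as 1 table per library, with 26485 gene symbols and 1 value each. No unit is named in the files. What the authors deposited was taken to be FPKM because the values are not whole numbers, differ in total between libraries and show no whole-read steps, so the depth is unknown and no counting error is given. HISAT2 2.2.0 was the aligner and hg38 the genome build, as the submitters' processing notes list them. Not given in the sources used here are the program and annotation behind the values.

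Samples were grouped by their titles. The members and gene lists were chosen with earlier results of these data known. Tests used limma 3.58.1 in R 4.3.3 (trend and robust moderation) on log2(FPKM + 1), for genes averaging 1 FPKM or more in the libraries fitted. The siRNA effect used the 6 HDM libraries. HDM effects and the interaction were contrasts between 4 group means fitted to 8 libraries, and 4 residual degrees of freedom remained in either fit. Two-sided p-values were Benjamini-Hochberg adjusted over all genes tested, with a threshold of 0.05. Named beside the members were, from each role list, genes past the threshold when at most 4 passed, otherwise the 4 with the largest difference, and the 5 genes nearest in profile. The procedure was tested on simulated data. Gene positions are those of GENCODE v29 on GRCh38, and promoters those of RefSeq on GRCh38.p14, read with Python 3.11.15. Alternatives were the pseudocount, the filter, scaling, moderation, the model and leaving out each HDM library.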

Additional observations from a re-analysis of the deposited data

How the results depend on the processing

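Over 14 settings of the siRNA comparison, APCDD1 (-0.84 to -0.61, adjusted p from 0.00117 to 0.01) and DKK3 (0.31 to 0.39, adjusted p from 0.00147 to 0.0128) passed the threshold in each, and of the other 6 tested members WNT7B passed in 1. No member's interaction passed under any of the 12 settings tried for it, and 1 sign turned in the tests of members, that of the siRNA difference of DKK1 without control HDM replicate 2 (-0.0037 to 0.18 over the fits without a library, against 0.086). Without a filter on low values the interaction called 20 genes (7 with it), the HDM comparison 2 higher and 2 lower Wnt genes (4 and 6), and the siRNA comparison 3 higher and 3 lower (5 and 5). Without trend and robust moderation the interaction called 0 genes, HDM with control siRNA 180 (288), and the Wnt lists 3 lower with HDM and 3 higher with LY96 siRNA. Quantile normalization gave 14 interaction calls. Leaving out each HDM library gave 1119 to 1369 calls for the siRNA effect (1966), 774 to 936 for HDM over both siRNAs (1054), 187 to 329 for HDM with control and 493 to 593 with LY96 siRNA (617), and 0 to 33 for the interaction. Calls in the Wnt lists then ranged over 3 to 5 higher and 4 to 6 lower with HDM, and over 3 to 4 higher and 3 to 6 lower with LY96 siRNA. The lower calls with HDM in these fits count LGR6. Leaving out a PBS library was tried after the data were seen. The additive model then gave 619 calls for HDM over both siRNAs without the control PBS library (2 higher and 2 lower in the Wnt lists) and 282 without the LY96 PBS library (0 and 1). Each of those 2 fits estimates the HDM response of the siRNA that kept its PBS library, not an average over both. The cause of the other shifts was not tested. When a PBS library is left out, the interaction and the HDM response of the siRNA that lost it have no estimate.

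The labels number the HDM libraries 1 to 3 with each siRNA and do not say whether equal numbers were handled together. Deviations from the group means correlated at 0.048, -0.016 and -0.016 for equal numbers. Little deviation was thus shared, which cannot exclude that the libraries were paired. With the replicate block the siRNA effect had 1635 calls, and PTK7 had an adjusted p of 0.0593. The titles give the PBS libraries no number, so no block was fitted for the HDM contrasts.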
